A study of Mus musculus with 98 samples.

Results

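CapFb2b is one of the capsular fibroblast labels given to single cells of the mouse nonepithelial thymic stroma (NETS), and its members were every cell carrying that label in the deposited annotation. Of 36208 labelled NETS cells, 2169 were CapFb2b cells. Against these stood 1125 CapFb2a and 879 CapFb4 cells, the labels set beside CapFb2b here, and 19 labels in all, of which 11 were fibroblast labels. The label was assigned from the same counts that are described here, so differences between CapFb2b and other labels are given as a description with no test, and tests were kept for age within the label, genotype and separately sorted cells. The difference of the change with age from that in CapFb2a was fitted across all genes, but it too rests on the labels and is given as a description.

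The age series held live cells lacking Ter119, CD45 and EpCAM, the surface proteins that mark red cells, leukocytes and epithelium, from wild-type (WT) C57BL/6 thymi. There was 1 library each at E12.5 and E13.5 (embryonic days), made from thymi pooled over litters, and 2 libraries each at E16.5, at birth (P0) and at 4 weeks (W4). A second single-cell experiment held newborn thymic cells lacking Ter119 and CD45, with epithelium kept. Unlike the age series, these cells were fixed in RNAprotect and stored before loading. They came from 3 Tbx1+/-Crkl+/- and 3 WT libraries. The former carried a LacZ allele of Tbx1 and a germline null allele of Crkl, both heterozygous, and the WT animals were littermates. Both alleles are carried by every cell and not by fibroblasts alone, and both genes lie in the region deleted in DiGeorge syndrome. A bulk RNA-seq experiment on WT mice held stromal cells sorted by podoplanin (gp38) and by CD26, the protein made by Dpp4, at P0 and W4, with 6 libraries in each group and 5 in gp38+CD26+ cells at W4 after 1 shallow library was left out.

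Thymic fibroblasts build the capsule, the sheet of connective tissue around the organ, and its septa, and they supply matrix, growth factors and retinoids to epithelium and incoming progenitors. Fibroblasts that express Pi16, a secreted peptidase inhibitor, together with Dpp4, Cd34 and Ly6a lie in the outer connective tissue of many organs and are regarded as a reservoir for other fibroblasts. Their matrix is rich in microfibrils, the fibrillin scaffold on which elastic fibres are laid, to which Mfap5 belongs, and in fibril-associated collagens such as Col14a1. Wnt5a is a secreted Wnt ligand of the noncanonical branch.

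The promoters of Pi16 and Dpt are shown because these genes, a marker and a leading gene of the label, were nearly silent in the early embryo and abundant from E16.5. Both windows run from 250 bases before to 50 bases after the annotated start, from RefSeq on GRCm38.p6, and capitals mark the letters TATAAA. Pi16 lies at chr17:29318632-29318931 on the plus strand and Dpt at chr1:164796413-164796712 on the plus strand.
Pi16: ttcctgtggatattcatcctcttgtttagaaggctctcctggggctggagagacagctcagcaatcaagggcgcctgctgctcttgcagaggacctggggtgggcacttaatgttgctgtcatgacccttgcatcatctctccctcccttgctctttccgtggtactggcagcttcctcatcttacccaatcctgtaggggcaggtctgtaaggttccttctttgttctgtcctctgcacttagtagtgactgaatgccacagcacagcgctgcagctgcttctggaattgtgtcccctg
Dpt: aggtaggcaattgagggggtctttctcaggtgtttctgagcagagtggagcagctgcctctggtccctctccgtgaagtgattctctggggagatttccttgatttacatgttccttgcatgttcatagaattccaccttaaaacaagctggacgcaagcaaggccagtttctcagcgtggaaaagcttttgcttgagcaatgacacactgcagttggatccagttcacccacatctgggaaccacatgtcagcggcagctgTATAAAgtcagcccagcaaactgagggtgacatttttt
The letters TATAAA, searched on both strands, were absent from the Pi16 window and occurred once in that of Dpt. Of the 21 markers and leading genes, 13 had an entry in the promoter table and 5 of these held TATAAA, which occurred in 13.6% of all 32851 promoters of the table.

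The CapFb2b cells of a library held between 2507814 and 7089468 unique molecular identifiers (UMIs, counted transcripts), with a median of 10662 to 17003 UMIs per cell. All CapFb2b cells came from 1 of the authors' clusters, and 22 of them carried a barcode that occurred in more than 1 library. The E16.5 libraries differed from each other by 1.74 times sampling noise per gene, those of P0 by 5.93 times and those of W4 by 3.51 times. P0 replicate 1 stood apart from replicate 2 in its cells, with 228 mesothelial (Mes) cells against 7, and in the Y-linked gene Ddx3y, whose CapFb2b level was 1.41 CPM (counts per 1000000 UMIs of the label in that library) in replicate 1 and 69.8 in replicate 2. Ddx3y was also at 0 in the E13.5 library, while the others lay between 16.9 and 59.0 CPM. The cells of the later ages came from a pair of thymi at each, and the labels do not tie a library to a thymus, so p-values measure the spread between these libraries.

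Markers of other cell types were at different levels in CapFb2b cells. The 7 endothelial markers summed to between 38.5 and 55.6 CPM over the libraries, against 3263 to 8471 in the endothelial label. The 7 mesothelial markers summed to 4.75 to 41.99 CPM, against 1731 to 6849 in the mesothelial label, the 4 neural crest markers to 0.62 to 7.36, against 1423 to 3082 in the neural crest label, the 10 leukocyte markers to 7.90 to 95.3 and the 7 epithelial markers to 3.02 to 14.2. Smooth muscle markers were highest in the embryo, at 2094 CPM in the E12.5 library and 1529 at E13.5, and between 105 and 456 later, against 6507 to 23742 in the vascular smooth muscle label. Pericyte markers summed to 71.8 to 217 CPM, against 739 to 10607 in pericytes. Markers of other fibroblasts had ranges that overlapped those of their own labels when taken over all ages. The 6 CapFb1 markers summed to 1391 to 10186 CPM, against 3895 to 12745 in CapFb1b. At W4 they stood at 1722 and 1391 CPM, below that range. The 7 medullary fibroblast markers summed to 417 to 1662 CPM, against 279 to 6893 in MedFb1b. CapFb2a markers summed to 840 to 4386 CPM, against 1180 to 6384 in CapFb2a, and CapFb4 markers to 402 to 4943 CPM, against 812 to 11278 in CapFb4. The 4 CapFb3 markers summed to 691 to 1749 CPM, against 643 to 2918 in CapFb3. Haemoglobin and other red cell genes ranged from 1.23 CPM at E12.5 to 4300 in W4 replicate 1, and their part in the results below was not tested.

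Of the 4 markers, Pi16, Mfap5 and Col14a1 were low before E16.5 and higher from then on, while Wnt5a was lowest at E16.5. Levels are CPM of the CapFb2b UMIs summed per library, in the order E12.5, E13.5, E16.5 replicates 1 and 2, P0 replicates 1 and 2, and W4 replicates 1 and 2. Pi16 stood at 0.306, 2.68, 553, 494, 584, 367, 4271 and 3674 CPM. The 2 early libraries held 20 UMIs of Pi16 between them, and both W4 libraries lay above every other. Mfap5, a glycoprotein of microfibrils, stood at 18.7, 80.1, 2749, 2662, 3248, 2787, 4066 and 4202 CPM, again without overlap between early and later libraries. Col14a1, a collagen that binds the surface of fibrils, stood at 3.06, 138, 780.5, 798, 1085, 873, 1087 and 983 CPM. Wnt5a followed another course, at 199, 111.6, 36.6, 36.4, 86.7, 76.2, 190.2 and 167.4 CPM, and was highest at E12.5 and W4 and lowest at E16.5. At E12.5 and E13.5 the markers other than Wnt5a were thus low, and the cells are called CapFb2b there by their annotation alone.

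**Figure D1:**
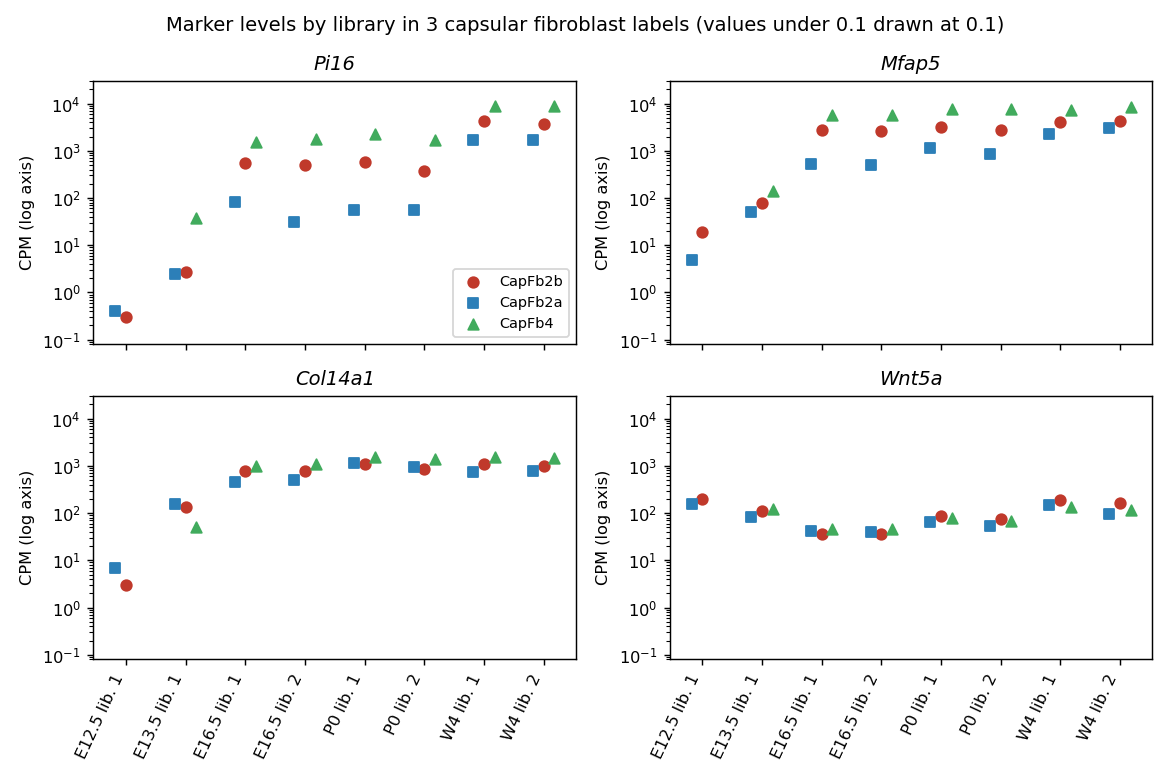
Level of Pi16, Mfap5, Col14a1 and Wnt5a (CPM of summed UMIs, log axis, values under 0.1 drawn at 0.1) in each library of the age series for CapFb2b, CapFb2a and CapFb4 cells, with 1 point per label and library. From E16.5 the CapFb4 points lay above those of CapFb2b, and these above CapFb2a, for Pi16 and Mfap5 in every library.

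Pi16 and Mfap5 were shared with neighbouring labels. Averaged over libraries, Pi16 was highest in CapFb4 (3549 CPM ± 3613, SD, n = 7 libraries), then in CapFb2b (1243 ± 1707, n = 8) and in CapFb2a (452 ± 768, n = 8), and these ranges overlap because they span all ages. Mfap5 took the same order, at 6068 ± 2824, 2477 ± 1608 and 1045 ± 1070 CPM. Wnt5a was close in CapFb3 (117 ± 76.8, n = 8) and CapFb2b (113.03 ± 65.6), SDs that span all ages. Within libraries CapFb2b was above CapFb3 at E12.5 and P0 and below it in the others. To compare shares of cells, each cell was thinned to 2000 UMIs, which left out 1 CapFb2b cell at E12.5 and 1 in P0 replicate 1. Pi16 was then found in 0, 0.773, 50.2, 46.4, 37.8, 34.2, 91.3 and 84.3% of CapFb2b cells in library order. The unthinned shares were 0.420, 2.63, 79.5, 73.7, 60.7, 59.5, 96.0 and 89.7%. In CapFb2a the thinned share reached 9.57% before W4 and 39.5 and 51.2% at W4, in CapFb4 it was 3.57% at E13.5 and 83.6 to 100% afterwards, and in endothelial cells, which should lack the gene, it ran from 0 to 9.96%. The median endothelial cell held 5185 to 19094 UMIs.

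The 20 leading genes of the label, those with the largest mean difference of log2(CPM + 10) from the other labels among genes averaging at least 50 CPM, were led by a microfibril gene. The difference was largest for Mfap4, a microfibril-associated glycoprotein, at 3.42, followed by Mfap5 at 3.26, Pi16 at 3.08 and Angptl1, a secreted angiopoietin-like protein, at 2.90. The remaining genes, in descending order to 2.16, were Cxcl13, Ogn, Smoc2, Col14a1, Sema3c, Gpc3, Col1a1, Ntrk2, Igf1, Clec3b, Fndc1, Igfbp6, Scara5, Sfrp2, Htra3 and Dpt. Few of them were highest in CapFb2b: Angptl1 ranked first among the labels there in 7 of 8 libraries, Ntrk2, a neurotrophin receptor, in 3, and Mfap4, Cxcl13, Ogn and Htra3 in 2 each. CapFb4 was the label most often ranked first for 11 of the 20 genes, among them Pi16, Mfap5, Col14a1, Clec3b and Dpt. For Mfap4, Col1a1 and Ntrk2 it was CapFb2a, and the paper lists Mfap4 among the top genes of CapFb2a. Angptl1 stood at 35.2, 129, 141, 138.7, 362, 133.9, 639 and 592 CPM in library order, with both W4 libraries above the rest.

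**Figure D2:**
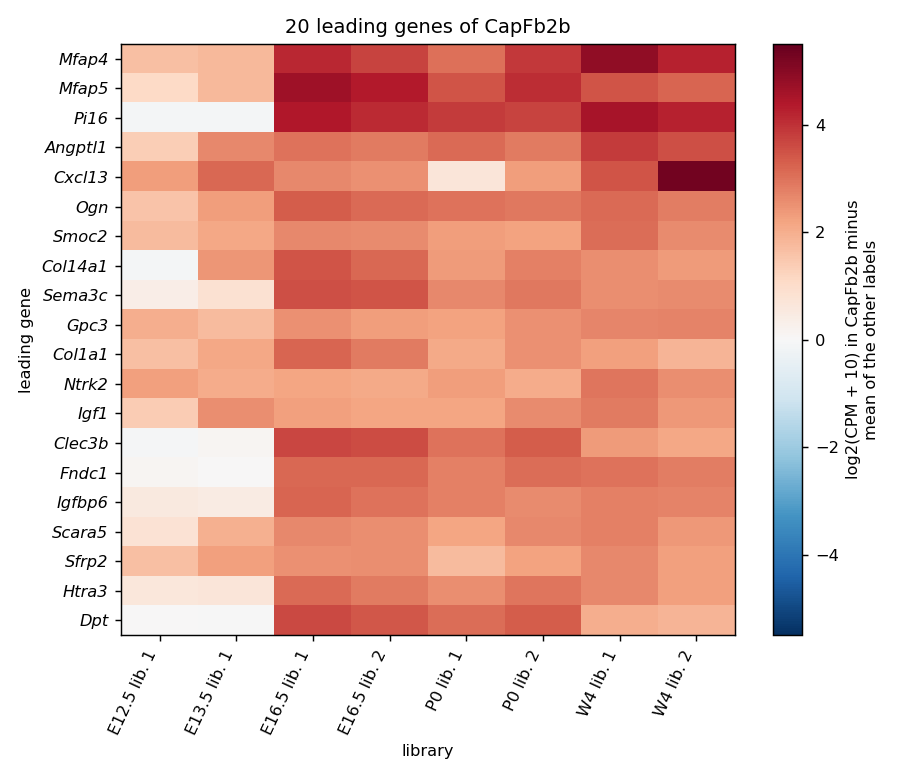
Difference of the 20 leading genes (rows) between CapFb2b and the mean of the other labels, on the log2(CPM + 10) scale, in each library of the age series (columns). Pi16, Clec3b, Fndc1 and Dpt differed little at E12.5 and E13.5, while Angptl1, Gpc3 and Ntrk2 were higher in CapFb2b in every library.

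Cxcl13, the chemokine that draws B cells, was uneven within the label. Its level was 58.2, 270, 368, 451, 28.4, 184.05, 557 and 2460 CPM in library order. It was found in 10.1, 24.4, 28.8, 30.7, 7.02, 18.99, 10.1 and 19.8% of the cells, and the tenth of cells with most UMIs held between 85.2 and 100% of them. In W4 replicate 2, 48 of 242 cells carried all 9713 UMIs. Pi16 was spread more evenly, with 27.1 to 49.5% of its UMIs in the same share of cells from E16.5 on.

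Against CapFb2a, the largest differences upward included Ly6a and Dpp4, and those downward Tagln and Acta2. The mean difference of log2(CPM + 10) over 8 libraries was 2.23 (SD 2.02) for Ly6a, the stem cell antigen Sca-1, which averaged 718 CPM in CapFb2b and 254 in CapFb2a. Dpp4 differed by 2.06 (SD 1.18), at 104 and 14.7 CPM, and the ferritin receptor Scara5 by 2.06 (SD 0.996). Both were higher in CapFb2b in 8 of 8 libraries. At E12.5 and E13.5 some of these differences were near 0, at 0.04 and 0.08 for Ly6a and -0.01 and 0.03 for Pi16. Cxcl13, Ly6c1, Pi16, the protease Pcsk6, Angptl1, the fibulin Efemp1 and the transcription factor Maf completed the 10 largest, with differences down to 1.61. On the other side, Tagln, an actin-binding protein of smooth muscle, differed by -3.17 (SD 1.14), at 55.8 CPM in CapFb2b and 538 in CapFb2a, and smooth muscle actin Acta2 by -2.98 (SD 1.30). Heyl, a target of Notch signalling, differed by -2.38 (SD 0.49). Rgs5, Gucy1a1, Gucy1b1, Parm1, Mgp, Ctgf and Ndufa4l2 were the others, and 8 of these 10 genes were lower in CapFb2b in every library.

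Against CapFb4, over the 7 libraries in which both had at least 20 cells, the pattern was different. Cxcl13 was higher in CapFb2b by 3.77 (SD 1.74), at 617 CPM against 19.99, and Mgp, the inhibitor of calcification named matrix Gla protein, by 2.52 (SD 1.37). The adhesion molecule Icam1 was higher by 2.06 (SD 0.78) and Col15a1, a collagen of basement membrane zones, by 2.05 (SD 0.99). Tmem176a, Tmem176b, Sfrp1, Apoe, Gdf10 and Rgs16 were also among the 10 largest. CapFb2b was lower in Akr1c18, a steroid-converting reductase, by -3.18 (SD 1.56), at 6.43 CPM against 248, and in Igfbp5, an insulin-like growth factor binding protein, by -2.72 (SD 1.62), at 409 against 1946. Krtdap, Sbsn, Limch1, Efhd1, Dact2, the morphogen Bmp7, Prss23 and the surface protein Thy1 followed, with differences down to -1.69. Bmp7 was lower in 7 of 7 libraries, at 40.6 CPM against 155.5.

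The label nearest to CapFb2b differed between libraries, within ages as well as between them. By Pearson correlation of log2 levels over 8640 genes, a description in which all labels of a library share its depth, CapFb1a was nearest at E12.5 (r = 0.992) and CapFb3 at E13.5 (r = 0.987). CapFb4 was nearest in E16.5 replicate 1 and CapFb3 in replicate 2, both with r = 0.972. At P0 the nearest were CapFb1a in replicate 1 (r = 0.967) and CapFb3 in replicate 2 (r = 0.965), and at W4 CapFb3 (r = 0.970) and CapFb2a (r = 0.965). The replicates of each of these ages named different labels, so no order among the nearest labels is read from them.

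CapFb2b cells formed a larger share of the NETS in the early embryo than at E16.5 and P0. The share was 11.9% at E12.5 (95% Wilson interval 10.6 to 13.4%) and 11.5% at E13.5 (10.7 to 12.4%). It was 3.80 and 4.16% at E16.5, 5.16 and 2.77% at P0 and 5.81 and 7.41% at W4, so that the early libraries lay above all others and the P0 libraries on either side of E16.5. In a fit of cell numbers over all labels (edgeR quasi-likelihood test, Benjamini-Hochberg adjustment over the labels) the share changed over the ages (adjusted p = 0.0229). It fell from E12.5 and E13.5 to E16.5 by 1.56 on the log2 scale (SE 0.341, adjusted p = 0.00894). With a replicate block in this edgeR fit the call over ages was lost (adjusted p = 0.0748), and that of the fall was kept (adjusted p = 0.0346). Leaving out either E16.5 library or either W4 library ended the call over ages, with an adjusted p of 0.115, 0.114, 0.0549 and 0.0551 by edgeR, and leaving out E16.5 replicate 1 or 2 ended that of the fall, with 0.0966 and 0.0793. P0 differed from E16.5 by -0.00759 (SE 0.335, adjusted p = 0.983). W4 differed from P0 by 0.740 (SE 0.337, adjusted p = 0.146), by 1.26 without P0 replicate 1 and by 0.359 without P0 replicate 2. Of fibroblasts alone, CapFb2b made up 21.9, 20.8, 6.999, 7.74, 8.46, 4.52, 11.2 and 12.3% in library order. These are shares, in which a fall can come from fewer CapFb2b cells or more of the others. Cells with a UMI of the cell cycle genes Mki67 or Top2a made up 23.5, 30.1, 23.7, 26.6, 17.8, 16.46, 7.38 and 5.79% of CapFb2b cells. Proliferating stroma had a label of its own (Pr), in which 22 cell cycle genes summed to 4682 to 11085 CPM, against 360 to 2545 CPM in CapFb2b. The CapFb2b shares and the cell cycle results below leave out cells under that label.

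**Figure D3:**
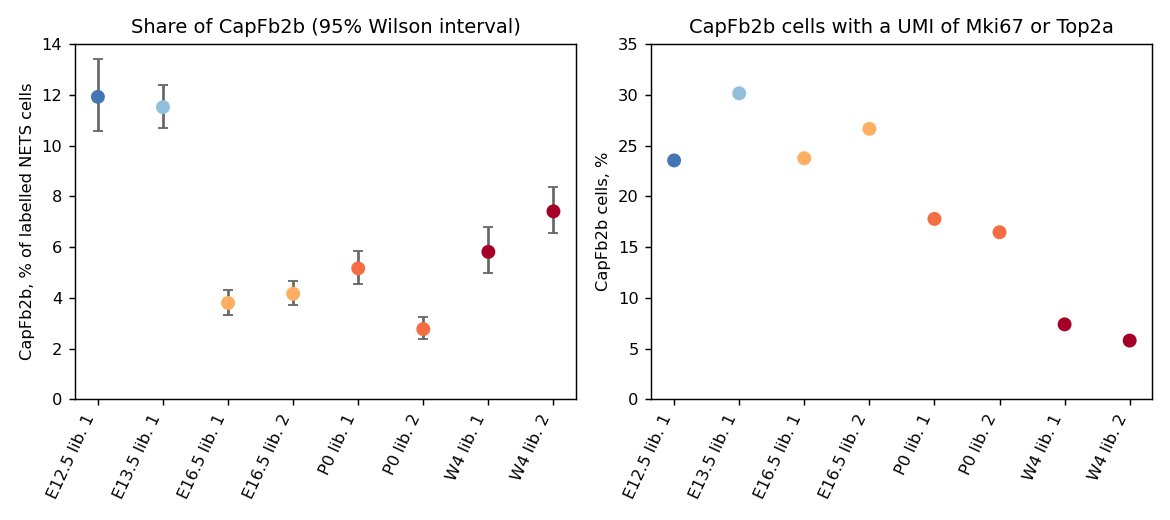
Left, share of CapFb2b among labelled NETS cells in each library of the age series (percent, with 95% Wilson intervals that cover counting error only). Right, share of CapFb2b cells with a UMI of Mki67 or Top2a (percent). The E12.5 and E13.5 shares lay at 11.9 and 11.5% and the others between 2.77 and 7.41%, and the W4 libraries held the fewest Mki67 or Top2a cells.

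Between the early embryo and E16.5, most genes of collagen processing, of interferon and MHC class I and of the Pi16 type rose in CapFb2b cells, and more mesenchymal transcription factors fell than rose. Of 13020 genes tested within the label, 8337 (64.0%) changed over the 5 ages, 3214 (24.7%) were higher at E16.5 than at E12.5 and E13.5 and 2700 (20.7%) were lower, 45.4% in all (edgeR quasi-likelihood test on summed UMIs, adjusted p under 0.05). DESeq2 called 35.2% of the genes it tested over the ages. For E16.5 against E12.5 and E13.5 it called 22.4%, 1967 genes higher and 1122 lower. Pi16 rose by 9.36 on the log2 scale (SE 0.319, adjusted p = 7.90e-10), Mfap5 by 6.41 (SE 0.125, adjusted p = 2.17e-11) and Col14a1 by 5.54 (SE 0.158, adjusted p = 1.82e-10), each against the average of 2 early libraries that differed between themselves. Wnt5a fell by 1.75 (SE 0.112, adjusted p = 1.54e-07). Dpt, dermatopontin, a small matrix protein, had 2 UMIs in the early libraries and 449 and 434 CPM at E16.5, a ratio of 2280 (interval 631 to 18800 from counting error). Clec3b, tetranectin, a plasminogen-binding lectin, went from 0 and 1.13 CPM to 824 and 865 CPM.

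The list of 25 Pi16-type fibroblast genes had 21 members higher and 1 lower at E16.5, with a median log2 difference of 3.14 against 0 over all genes. Ly6a rose from 0.306 and 0.564 CPM to 495 and 541 CPM. Dpp4 stood at 2.15 and 7.48 CPM early and at 138 in both E16.5 libraries, without overlap. Cd34, a sialomucin of stromal progenitors, went from 30.95 and 40.2 CPM to 664 and 644 CPM. Igfbp5 was the member that fell, from 1647 and 1335 CPM to 200.3 and 234 CPM. Since the list overlaps the label's leading genes, which were taken from these samples, its direction is no independent evidence.

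Matrix genes rose as groups. Of 16 interstitial collagens 12 were higher and 3 lower, of 26 genes for collagen processing 24 were higher and none lower, and of 11 small leucine-rich proteoglycans, which regulate fibril diameter, 10 were higher and none lower. Decorin, Dcn, stood at 117 and 1505 CPM early and at 7732 and 7741 CPM at E16.5. The fibril collagen gene Col3a1 stood at 1001 and 3435 CPM early and at 13180 and 12760 CPM later, and Lox, which crosslinks collagen and elastin, at 29.7 and 62.9 CPM and then at 332 and 320.1 CPM. In each of these the E12.5 library was lower than that of E13.5. Of 17 elastic fibre and microfibril genes 14 were higher, among them fibrillin Fbn1, from 123 and 191.6 CPM to 983 and 943 CPM, and 1, Efemp1, was lower.

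Genes of innate defence and signalling were also higher. Of 20 interferon and MHC class I genes 18 were higher and none lower, all 18 early response genes were higher, as were 9 of 13 complement genes with 1 lower, and 14 of 15 genes of lipid and metal handling. H2-K1, an MHC class I heavy chain, stood at 0.613 and 1.13 CPM early and at 16.7 and 16.53 CPM at E16.5. The chemokine gene Cxcl1, which draws neutrophils, went from 1.23 and 1.41 CPM to 328 and 417 CPM, and the alarmin gene Il33 from 2.45 and 12.7 CPM to 188 and 210.2 CPM. Lpl, lipoprotein lipase, went from 11.3 and 12.7 CPM to 719 and 689 CPM. The early response genes, which also respond to tissue dissociation, summed to 3665 and 6119 CPM early and to 10817 and 10872 CPM at E16.5. Beside them 4 of 9 leukocyte markers were higher (2 to 6 over the alternatives) and 1, Lyz2, lower (0 to 1), and their sum was 14.1 and 7.90 CPM early and 14.9 and 23.6 CPM at E16.5. All 5 red cell genes, 3 of 5 pericyte markers and 4 of 7 medullary fibroblast markers were also higher, and 1 medullary marker was lower. The part of these markers and of the early response genes in the other groups was not tested.

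Other genes among the 10 largest rises were Ly6c1, with 1 early UMI and a ratio of 1040 (interval 186 to 40900), Krtdap, with 3 early UMIs and a ratio of 268 (interval 91.7 to 1300), Cxcl10 and Fabp4. Hbb-bs and Hba-a2, haemoglobin genes, were also among them. At E16.5 between 47.5 and 49.6% of CapFb2b cells held a UMI of Hbb-bs, and the tenth with most held 95.2 to 97.7% of its UMIs, so that most of this RNA was counted in few cells. Haemoglobin genes have near-identical copies, so that counts may be divided between them.

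Developmental regulators fell. Of 54 mesenchymal transcription factors 31 were lower and 10 higher. Scx, the transcription factor of tendon progenitors, stood at 123 and 3.95 CPM early and at 0 in both E16.5 libraries. Foxd1 went from 119.2 and 54.4 CPM to 0.261 and 0 CPM at E16.5. This was 1 UMI, in replicate 1, and a ratio of 649 (interval 116 to 25600). Tbx1, a pharyngeal transcription factor needed for thymus formation, stood at 57.6 and 20.03 CPM early and at 0.523 and 0.413 CPM at E16.5, and fell by 5.83 on the log2 scale (SE 0.37, adjusted p = 1.38e-07). It was not particular to the label. After the thinning given above, Tbx1 was found at E12.5 in 10.5% of CapFb2b, 7.55% of CapFb2a and 7.69% of endothelial cells. At E13.5 these shares were 3.55, 5.43 and 2.43%, and that of CapFb4 was 7.14%. The paper places Tbx1 in the NETS at E12.5 alone, while 16.1% of unthinned CapFb2b cells held a UMI of it at E13.5. Pcp4, a calmodulin regulator, stood at 93.2 and 26.1 CPM early and was at 0 in both E16.5 libraries. Hmga2, a chromatin protein of growing embryonic tissue, went from 517 and 85.6 CPM to 1.57 and 1.86 CPM, and Crabp2, which carries retinoic acid, from 206 and 134.99 CPM to 1.31 and 1.03 CPM. Col9a1, Nefl, Adamts18, Tcf24 and Hist3h2ba completed the 10. Among the 10 transcription factors that rose were Osr2, from 2.45 and 20.7 CPM to 64.8 and 51.9 CPM, and Klf4, from 135.2 and 540 CPM to 838 and 805 CPM.

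Of 12 secreted Wnt modulators 7 fell and 2 rose. Rspo3, which amplifies Wnt signals, stood at 288 and 309 CPM early and at 19.3 and 27.1 CPM at E16.5, and the inhibitor Frzb at 67.1 and 22.0 CPM and then at 0 and 0.207 CPM. Of 10 Wnt ligands 3 rose and 3 fell, near the shares over all genes. Wnt10b, a canonical ligand, went from 0 and 0.141 CPM to 5.75 and 6.41 CPM. Of 33 genes of the BMP and TGF-beta pathways 13 rose and 9 fell, of 26 of the IGF axis and imprinted growth genes 13 rose and 9 fell, and of 32 chemokines and growth factors 21 rose and 5 fell. Cxcl12, which retains progenitors, was among those that fell, from 758 and 1200.1 CPM to 212 and 204 CPM. The 9 BMP and TGF-beta genes that fell were also near the share over all genes. Over the alternatives the BMP and TGF-beta genes that fell numbered 4 to 9 and the Wnt ligands that fell 1 to 3. Since E12.5 and E13.5 had 1 library each, the spread of these ages was taken from the other ages. Leaving out E16.5 replicate 2 brought the share of genes called in either direction to 30.2%.

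From E16.5 to birth fewer genes moved. Of 13020 genes 547 (4.20%) were higher at P0 and 322 (2.47%) lower, 6.67% in all. Of the 4 markers Wnt5a rose, by 1.17 (SE 0.119, adjusted p = 0.000204), and Pi16 (-0.13, SE 0.17, adjusted p = 0.703), Mfap5 (0.16, SE 0.094, adjusted p = 0.354) and Col14a1 (0.31, SE 0.11, adjusted p = 0.12) did not pass the test. Over the alternatives 1 to 3 of the markers were higher and 0 to 1 lower. Early response genes led the groups, with 13 of 18 higher and none lower. Egr1 stood at 569 and 544 CPM at E16.5 and at 1474 and 1473 CPM at P0, and Ier3, which protects from stress-induced death, at 43.4 and 67.4 CPM and then at 272 and 398 CPM. The list summed to 19628 and 19366 CPM at P0. Of 22 cell cycle genes 13 were lower and none higher, and of 10 Wnt ligands 4 were higher. Over the alternatives these counts ran from 2 to 19 and from 2 to 4.

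The largest rises at P0 rested partly on P0 replicate 1. Col2a1, the main collagen of cartilage, had no UMI at E16.5, 267 CPM in P0 replicate 1 and 2.26 CPM in replicate 2. In replicate 1, 51.7% of CapFb2b cells held a UMI of it and the tenth with most held 87.1% of its 949 UMIs. C1qtnf3, a cartilage-enriched secreted protein, stood at 132.02 and 12.8 CPM, Gas6, a ligand of the TAM receptors, at 139.05 and 29.4 CPM, and Tgfbi, a matrix protein induced by TGF-beta, at 167.2 and 56.2 CPM in the P0 libraries. Of 19 tenocyte and cartilage genes 8 were higher at P0, and 5 of 15 tested without P0 replicate 1, with 2 to 12 over the alternatives. Sfrp4, an inhibitor of Wnt signals, had closer replicates, at 13.3 and 14.3 CPM at E16.5 and 93.5 and 67.9 CPM at P0, and rose by 2.56 (SE 0.168, adjusted p = 2.43e-05). Mgp, the cytokine gene Il6, Prnp and Tnfrsf12a were the other rises among the 10.

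Among the genes lower at P0, Cdkn1c, an imprinted inhibitor of the cell cycle, went from 6924 and 6901 CPM to 2684 and 2405 CPM and fell by 1.44 (SE 0.112, adjusted p = 6.38e-05). Ndufa4l2, a mitochondrial protein induced by hypoxia, went from 184.6 and 143.02 CPM to 42.8 and 27.5 CPM, and Vegfd, a lymphatic growth factor, from 69.3 and 56.8 CPM to 17.7 and 12.8 CPM. Dpp4, of the Pi16-type genes, fell from 138 in both libraries to 81.9 and 78.8 CPM. Of that list of 25, 1 fell (1 to 4 over the alternatives) and 7 rose (2 to 14). Hbb-bt, Fabp5, Slc16a3, G0s2, Pclaf, Stmn1 and Cdo1 were the other falls. Among the comparisons between ages this was the least stable relative to its share of genes called. That share fell without either E16.5 library and rose without P0 replicate 2.

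From birth to 4 weeks most complement, interferon and MHC class I and Pi16-type genes rose in CapFb2b cells, and most genes of the IGF axis and imprinted growth and of the cell cycle fell. Of 13020 genes 1952 (15.0%) were higher at W4 and 1956 (15.0%) lower, 30% in all. Pi16 rose by 3.17 (SE 0.182, adjusted p = 2.86e-07), Wnt5a by 1.23 (SE 0.108, adjusted p = 7.81e-06) and Mfap5 by 0.56 (SE 0.095, adjusted p = 0.000918). Col14a1 differed by 0.19 (SE 0.11, adjusted p = 0.229). Of the 20 leading genes 15 were higher and 2, Gpc3 and Col1a1, lower, and of the 25 Pi16-type genes 19 were higher and 2, Igfbp5 and Creb5, lower. Both lists hold genes chosen with the levels in these libraries known, W4 included, so their direction is no independent evidence. Igfbp6, a binding protein for IGF2, stood at 362 and 204 CPM at P0 and at 2235 and 2225 CPM at W4. Pcolce2, an enhancer of procollagen processing, stood at 51.5 and 24.5 CPM and then at 431 and 339 CPM. Without W4 replicate 1 or 2 the share of genes called became 19.5 and 18.3%.

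Complement genes were higher in 9 of 13 cases and lower in none. C7, part of the membrane attack complex, stood at 2.25 and 1.13 CPM at P0 and at 254 and 168.4 CPM at W4, a rise of 6.97 (SE 0.299, adjusted p = 3.38e-08). C3, the central component, had 190 UMIs (53.5 CPM) in P0 replicate 1 and 350 UMIs in P0 replicate 2, and stood at 1620 and 1808 CPM at W4. C7 and C3 were named from genes whose W4 and P0 libraries did not overlap, so that separation was fixed by the choice. Of 20 interferon and MHC class I genes 18 were higher and 1, Irf1, lower. H2-K1 rose from 30.1 and 40.0 CPM to 347 and 394 CPM, and H2-D1 from 75.2 and 82.6 CPM to 581 and 539 CPM. Beside these groups, the leukocyte markers summed to 40.3 and 16.6 CPM at P0 and to 95.3 and 47.1 CPM at W4, with 2 of 9, Cd8b1 and Lck, higher (0 to 5 over the alternatives), and red cell genes to 155.4 and 498 CPM and then to 4300 and 434 CPM. Medullary fibroblast markers summed to 707 and 808 CPM at P0 and to 1405 and 1662 CPM at W4, with 4 of 7 higher (2 to 4 over the alternatives) and 1 lower. Pericyte markers summed to 217 and 183 CPM and then to 71.8 and 103.1 CPM, with 3 of 5 lower (2 to 4), and smooth muscle markers to 456 and 299 CPM and then to 105 and 181 CPM, with 3 of 5 lower (2 to 3). The part of these markers in the change was not tested.

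Matrix genes moved both ways at W4, with 5 of 16 interstitial collagens higher (3 to 5 over the alternatives) and 6 lower. Col8a1, a short-chain collagen, rose from 18.02 and 7.54 CPM to 310 and 323 CPM, while Col1a1 fell from 11950 and 8828 CPM to 6413 and 5377 CPM. Of 14 basement membrane collagens and laminins 9 were higher and 1 lower, led by Col15a1, from 194 and 171.6 CPM to 815 and 759 CPM. Of 24 matrix proteases and inhibitors 13 were higher and 3 lower. Periostin, Postn, a matrix protein of growing tissue, fell from 3260 and 2773 CPM to 117 and 146.4 CPM. Cilp, a matrix protein that binds TGF-beta, rose from 21.4 and 16.6 CPM to 326 and 343 CPM, and Itgbl1, an integrin beta-like protein, from 5.63 and 1.51 CPM to 166.7 and 142 CPM. Inmt, Cpxm2, Crispld2, Pla1a and Hbb-bt were the others of the 10 largest rises, of which Hbb-bt, at 584 and 37.7 CPM, was uneven between the W4 libraries and lost its call without W4 replicate 1. Of 10 Wnt ligands 5 were higher and none lower, and Wnt4 stood at 12.4 and 4.15 CPM at P0 and at 24.3 and 37.7 CPM at W4.

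**Figure D4:**
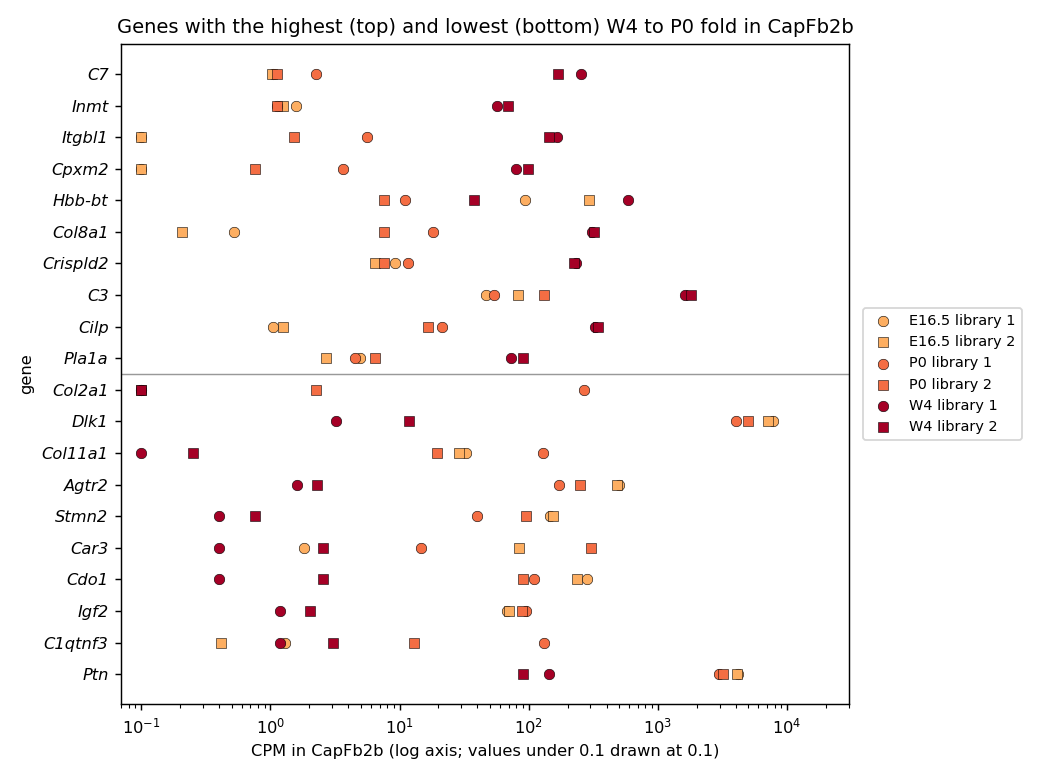
Level in CapFb2b cells (CPM, log axis, values under 0.1 drawn at 0.1) of the genes with the 10 largest rises (above the line) and the 10 largest falls (below it) from P0 to W4, with 1 point for each library of E16.5, P0 and W4. Genes were chosen so that their W4 and P0 libraries did not overlap, so the points lie apart in every row. Hbb-bt, Col2a1 and Car3 had the most distant replicates.

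Of 26 genes of the IGF axis and imprinted growth, 16 fell and 6 rose. Dlk1, an imprinted transmembrane protein of fetal progenitors, stood at 3997 and 4988 CPM at P0 and at 3.19 and 11.9 CPM at W4, and fell by 8.97 (SE 0.299, adjusted p = 4.48e-09). The imprinted genes Mest and Meg3 fell as well, Mest from 1262 and 1498 CPM to 103.3 and 140.1 CPM and Meg3 from 6311 and 5559 CPM to 1269 and 1244 CPM. Igf2, a fetal growth factor, went from 94.6 and 89.0 CPM to 1.20 and 2.03 CPM, and shares its locus with an overlapping gene on the same strand, so its counts are uncertain. Ptn, pleiotrophin, a heparin-binding growth factor, went from 2989 and 3163 CPM to 143.2 and 90.4 CPM. Agtr2, the fetal angiotensin receptor, went from 170.3 and 247 CPM to 1.60 and 2.28 CPM. Col2a1 had no UMI at W4 and, as given above, was mostly in P0 replicate 1, and its call was lost with DESeq2 and without either W4 library. Col11a1, another cartilage collagen, stood at 128.92 and 19.6 CPM at P0, and had 1 UMI at W4. Stmn2, Car3, Cdo1 and C1qtnf3 completed the 10 falls, and Car3, at 14.6 and 302 CPM in the P0 libraries, differed between replicates.

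Of 22 cell cycle genes 16 were lower at W4 and none higher, beside the fall in the share of Mki67 or Top2a cells given above. Chemokines and growth factors moved both ways, with 10 of 32 higher and 9 lower. Cxcl1 fell from 679 and 1178 CPM to 200 and 336 CPM and Ccl2, which draws monocytes, from 212 and 849 CPM to 55.8 and 124.9 CPM. Cxcl13 rose by 3.98 (SE 0.730, adjusted p = 0.00157). Of 18 early response genes 5 rose (2 to 5 over the alternatives) and 7 fell, among the 5 Hspa1a and Hspa1b, near-identical heat shock genes whose counts may be divided between them.

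The change from P0 to W4 was also set against that in CapFb2a cells. In a fit of the difference of the changes within libraries, 126 of 13107 genes (0.961%) changed more upward in CapFb2b and 224 (1.71%) more downward, 2.67% in all (adjusted p under 0.05). Both labels were assigned from these counts, and Pi16, a marker of CapFb2b, is among the genes called, so these calls are a description and no independent test. Within CapFb2a alone 10.2% of 11686 genes were higher at W4 and 9.34% lower, which is 19.5% in all. Cxcl13 differed by 3.81 (SE 0.237): it stood at 3.82, 30.1, 6.40 and 28.7 CPM in CapFb2a at P0 and W4. Elastin, Eln, differed by 2.36 (SE 0.138). Its level was 2130 and 712 CPM at P0 and 3313 and 3465 CPM at W4 in CapFb2b, and 10752 and 3167 CPM and then 2643 and 4120 CPM in CapFb2a. Gatm, which makes the creatine precursor, differed by 4.23 (SE 0.632). Mical2, Cd200, Csrnp1, Acta2, Itgbl1, Nfkbiz and Clca3a2 were the others of the 10 largest, and Clca3a2 stood at 0, 0, 0 and 0.507 CPM in CapFb2b, and at 4.01, 286, 3.20 and 0.757 CPM in CapFb2a, where P0 replicate 2 stood apart.

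Ly6a differed by -3.38 (SE 0.218). It stood at 855 and 758 CPM in CapFb2b at P0 and at 49.3 and 40.7 CPM in CapFb2a, and at W4 at 1702 and 1391 CPM against 1013 and 890 CPM, so that CapFb2a was lower at P0 than at W4. Ly6c1 took the same course with a difference of -3.01 (SE 0.214). Cxcl14, a chemokine of epithelia and stroma, differed by -5.98 (SE 0.489) and was at 3.19 and 2.79 CPM in CapFb2b at W4 against 302 and 78.7 CPM in CapFb2a. Ptn fell in both labels, further in CapFb2b, by a difference of -3.27 (SE 0.252). Ltc4s, Hsd11b1, H2-Q7, Ifitm1, Adam12 and Enpp2 were the other genes. Of 13 complement genes 7 differed downward and none upward, and of 18 early response genes 9 differed upward and none downward. Of the 25 Pi16-type genes 6 differed upward and 9 downward, Pi16 and Dpp4 among the latter. Over the alternatives these counts ran from 3 to 8 downward and 0 to 1 upward for complement, from 5 to 16 for early response, and from 2 to 6 upward and 7 to 11 downward for the Pi16-type genes. The labels were not tested against each other at either age. Leaving out P0 replicate 1, W4 replicate 1 or W4 replicate 2 brought the share of genes called to 1.76, 1.40 and 0.961%.

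The bulk libraries placed most leading genes of CapFb2b in the gp38+CD26+ population. These libraries were not used to name the label, and the labels do not say whether both populations came from the same animals. Sorted cells mix all fibroblasts with those surface proteins, so that fewer cells of a type and less RNA per cell cannot be told apart. Gene counts per library ran from 8454267 to 15560221 except in the library left out, which held 25702. At P0, 216 of 11967 genes (1.80%) were higher in gp38+CD26+ than in gp38+CD26- cells and 1.55% lower, 3.35% in all. Of the 20 leading genes 16 were higher and none lower. Pi16 stood at 548, 311, 294, 269, 315 and 247 CPM in the 6 gp38+CD26+ libraries and between 0 and 18.1 CPM in the 6 gp38+CD26- libraries, a difference of 6.32 (SE 1.11, adjusted p = 0.005). The populations did not overlap. At W4, 897 of 12587 genes (7.13%) were higher in gp38+CD26+ cells and 870 (6.91%) lower, 14% in all, and of the 20 leading genes 18 were higher and none lower. Pi16 then stood at 6942, 7870, 12696, 13615 and 12037 CPM in the 5 gp38+CD26+ libraries and between 18.6 and 216 CPM in the other population, a difference of 7.34 (SE 0.76, adjusted p = 3.66e-05). Mfap5 differed by 3.78 at P0 (adjusted p = 4.91e-06) and by 4.72 at W4 (adjusted p = 2.77e-06). The 2 genes that did not pass at W4 were Cxcl13, with -1.81 (adjusted p = 0.0734, and 0.0102 by DESeq2), and Dpt, with 0.39 (adjusted p = 0.0606).

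**Figure D5:**
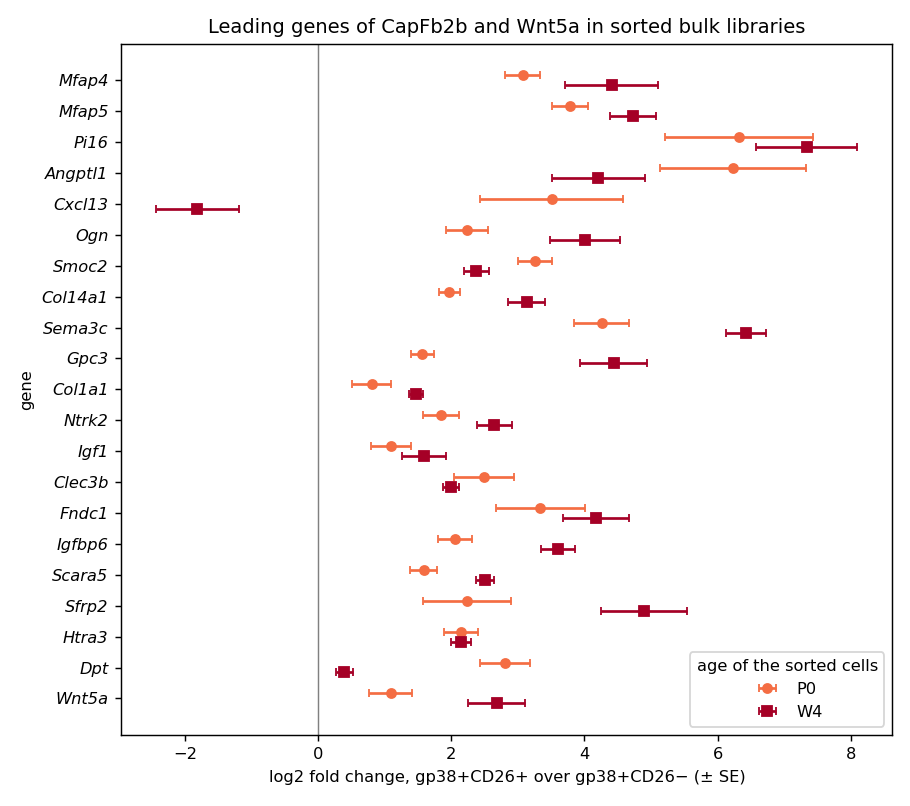
Log2 fold change of gp38+CD26+ over gp38+CD26- cells (points, with SE as bars) at P0 and W4 for the 20 leading genes of CapFb2b and Wnt5a in the bulk libraries. Points to the right of 0 are higher in gp38+CD26+ cells, and Cxcl13 at W4, at -1.81, was the value left of 0.

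Other groups differed between the bulk populations too. At W4, 7 of 9 Wnt ligands and 12 of 17 elastic fibre and microfibril genes were higher in gp38+CD26+ cells, and 11 of 20 interferon and MHC class I genes were lower. Over the alternatives the Wnt ligands numbered 3 to 7 and the elastic fibre genes 7 to 12. All 7 mesothelial markers were higher in that population at W4 and all 5 pericyte markers, 4 of 5 smooth muscle markers and 6 of 7 medullary fibroblast markers lower. At P0, 4 of 5 pericyte, 3 of 4 smooth muscle and 3 of 6 medullary fibroblast markers tested were lower (4 to 5, 3 and 2 to 4 over the alternatives). The part of these markers in the results at both ages, those of the leading genes included, was not tested. Of the 25 Pi16-type genes 22 were higher and none lower, Dpp4 itself being the gene of the sort.

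Part of the change with age was also called in gp38+CD26+ cells. Of 12433 genes 904 (7.27%) were higher at W4 than at P0 and 737 (5.93%) lower, 13.2% in all. Of the 1839 genes higher at W4 in CapFb2b cells and tested in bulk, 542 (29.5%) were called higher there and 35 lower. Of the 1767 lower in CapFb2b cells, 371 (21%) were called lower and 22 higher. The 10 genes with the largest rises in CapFb2b cells, named above, were all tested in bulk and all called higher there. Of the 10 with the largest falls 9 were tested, 6 were called lower and none higher. Over all 11130 genes tested in both, 11.9% were called in bulk in the direction of their CapFb2b value. C7 stood at 4.32 CPM ± 2.72 (SD, n = 6) in bulk at P0 and at 2338 ± 1475 (SD, n = 5) at W4, and Dlk1 at 2458 ± 451 and 4.35 ± 6.92. Pi16 rose by 5.11 in bulk (adjusted p = 3.89e-07). Cxcl13 went the other way: it stood at 731 CPM ± 321 (SD, n = 6) at P0 and at 60.0 ± 44.4 (SD, n = 5) at W4, and fell by 3.50 on the log2 scale (adjusted p = 0.000259), while it rose in CapFb2b cells. All 5 red cell genes were higher in bulk at W4, with Hbb-bs at a mean of 840 CPM against 0.242. Of the 7 mesothelial markers 5 were also higher, and of 3 pericyte markers tested 2 were lower. The part of these markers in the change was not tested.

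In the newborn experiment the CapFb2b label was carried by 364 of 21451 cells. The targeted genes were looked at first. Tbx1 had no UMI in CapFb2b cells of any of the 6 libraries, and over all cells stood at 0, 0 and 0.872 CPM in Tbx1+/-Crkl+/- and at 1.79, 0.441 and 0.605 CPM in WT libraries, ranges that overlap. Crkl stood at 36.9, 19.1 and 30.2 CPM in CapFb2b cells of Tbx1+/-Crkl+/- and at 25.5, 32.1 and 11.5 CPM in WT libraries, from 3 to 9 UMIs each. Over all cells Crkl stood at 24.1, 23.6 and 26.9 CPM against 23.0, 25.1 and 18.4 CPM, so the genotype could not be read from these counts. CapFb2b cells made up 6.60, 6.36 and 6.35% of fibroblasts in Tbx1+/-Crkl+/- and 5.68, 3.13 and 7.86% in WT libraries. The difference was 0.879 percentage points (two-sided exact permutation test, p = 0.7, the smallest possible being 0.1). WT replicate 2 lay below and WT replicate 3 above all 3 Tbx1+/-Crkl+/- libraries, and without WT replicate 2 the difference was -0.334 points.

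Within the label 1 of 3155 genes (0.0317%) differed by genotype, at 81302 to 785707 UMIs per library. This was Tppp3, a tubulin-binding protein of tendon and connective tissue sheath cells, which fell by 2.47 (SE 0.428, edgeR adjusted p = 0.00951). It stood at 36.9, 23.0 and 30.2 CPM in Tbx1+/-Crkl+/- and at 153, 225 and 123 CPM in WT libraries. The values of Tbx1+/-Crkl+/- replicates 1 and 3 stand for 3 and 5 UMIs, so the fall rests on few counts. At an unadjusted p under 0.05 there were 196 genes. With DESeq2 no gene passed after adjustment and 194 did before it, and without Tbx1+/-Crkl+/- replicate 2 none passed with edgeR. Of the 20 leading genes, 20 were tested and none passed. Pi16 stood at 36.9, 241 and 96.7 CPM in Tbx1+/-Crkl+/- and at 95.6, 134.8 and 382 CPM in WT libraries, which overlap (difference -0.63, SE 0.442, adjusted p = 0.851). Mfap5 stood at 1353, 2479 and 1492 CPM against 1447, 2234 and 3767 CPM.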

How the data were processed

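The deposited single-cell tables hold UMI counts per gene and cell with the authors' annotation. Per the labels and the methods, the authors aligned reads with Cell Ranger 3.1.0 to mm10, filtered cells on detected genes and mitochondrial share, removed doublets and named the clusters. The deposited bulk tables hold gene counts made by the authors with STAR 2.5.3a and HTSeq.

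UMIs of CapFb2b cells were summed per library, since cells of 1 library are not replicates, and divided by the library's CapFb2b total to give CPM. Genes passing filterByExpr were tested with edgeR 4.0.16 (quasi-likelihood, TMM, R 4.3.3), with Benjamini-Hochberg adjustment over all genes tested and a threshold of 0.05. Each age had its own mean, E16.5 was set against the average of the E12.5 and E13.5 log2 means, and the spread was shared by all ages. The same test served the bulk counts, the newborn genotype, and cell numbers with the log of NETS cells as offset. For the difference between CapFb2b and CapFb2a, label and age were fitted with library as block. Summaries used Python 3.11.15, numpy 2.4.6, pandas 2.3.3, scipy 1.17.1 and matplotlib 3.10.9. Scripts were tested on simulated data. Bulk libraries under 1000000 gene counts were left out.

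Genes named were the 4 markers, the 20 leading genes, the 10 largest differences each way from CapFb2a and CapFb4, the 10 largest changes each way per test with at least 50 CPM in 1 group and libraries that did not overlap, and members of gene lists. Mitochondrial, ribosomal and predicted genes, Xist and Y-linked genes were left out of the ranked parts. Other X-linked genes, such as Gpc3, were kept. Members and lists were chosen with earlier results of these data known. Alternatives were DESeq2 1.42.0, no filter, other pseudocounts, other totals for shares, RLE size factors, a replicate block, the bulk title prefix as a term, the shallow bulk library kept, cells with Mki67 or Top2a removed, and leaving out each single-cell library in turn. Bulk libraries were not left out in turn, except gp38+CD26- W4 replicate 6, chosen after seeing the data. Wilson intervals and the floor of 3 counts cover counting error only.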

Additional observations from a re-analysis of the deposited data

Results flagged for a closer look

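The change from P0 to W4 differed between CapFb2b and CapFb2a by the fit of the difference itself for 20 named genes, although both labels were assigned from the counts tested. CapFb2a had 38 cells in W4 replicate 1. On the log2 scale the change was more upward in CapFb2b by 9.52 for Clca3a2, 4.23 for Gatm, 3.81 for Cxcl13, 3.03 for Mical2, 2.36 for Eln, 1.88 for Cd200, 1.78 for Csrnp1, 1.64 for Acta2, 1.63 for Itgbl1 and 1.60 for Nfkbiz. Clca3a2 reached at most 0.507 CPM in CapFb2b, and its value rests on CapFb2a in P0 replicate 2, at 286 CPM. It was more downward, with differences of -5.98 for Cxcl14, -4.40 for Ltc4s, -3.58 for Hsd11b1, -3.46 for H2-Q7, -3.38 for Ly6a, -3.27 for Ptn, -3.22 for Ifitm1, -3.01 for Ly6c1, -2.94 for Adam12 and -2.78 for Enpp2.

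In the bulk libraries 15 of 84 combinations of gene and group held 1 library far from the others, where chance gives about 1 in 20 groups. Genes of 1 library are not independent. In gp38+CD26+ cells at P0 these were Pi16 at 548 CPM, Ogn at 880.5 CPM and Sema3c at 592 CPM, and at W4 Mfap5 at 3644 CPM, Cxcl13 at 138 CPM and Igf1 at 2542 CPM. In gp38+CD26- cells at P0 they were Pi16 at 18.1 CPM, Angptl1 at 4.33 CPM, Cxcl13 at 353 CPM and Gpc3 at 723 CPM. In the same population at W4 they were Mfap4 at 190.8 CPM, Gpc3 at 85.6 CPM, Igf1 at 1001 CPM, Fndc1 at 87.6 CPM and Sfrp2 at 75.2 CPM, all in replicate 6, which was also highest for Pi16, Mfap5, Wnt5a and Angptl1. Without it the log2 difference of Pi16, bulk gp38+CD26+ against gp38+CD26- at W4, was 8.14, and 12.9% of genes were called, an alternative chosen after seeing the data.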

How the results depend on the processing

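The labels do not say whether libraries with the same replicate number are paired. Deviations of same-numbered libraries correlated at 0.120, 0.0632 and 0.0301 between ages, and at 0.181, 0.134 and -0.340 in the newborns. Such correlations cannot decide whether libraries were paired. Bulk titles share no replicate number between the sorted populations, but they share a prefix (TXCK or DFCK), and with it as a term 3.09, 13.6 and 11.8% of genes were called at P0, at W4 and for W4 against P0. With a replicate block the share over ages had an adjusted p of 0.0748, and no count of genes moved by over 1.5 times and no other call changed. As a percent of genes tested, DESeq2 called 35.2 for genes changing over the 5 ages, 22.4 for E16.5 against E12.5 and E13.5, 2.76 for P0 against E16.5, 14.8 for W4 against P0 and 0 for newborn genotype (194 genes at an unadjusted p under 0.05), and, in bulk, 8.20 at P0, 18.1 at W4 and 18.9 for W4 against P0. With no filter it was 8.25 for P0 against E16.5, 3.13 for W4 against P0, CapFb2b against CapFb2a, and 0.0258 for newborn genotype. With the shallow bulk library kept it was 9.07 at W4 and 7.29 for W4 against P0. With all labelled cells as total the newborn share differed by -0.0665 points. A pseudocount of 1 kept 12 of the 20 leading genes. The cause of these moves was not tested.

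Leaving out 1 library at a time, the percent called was 53.5 to 71.9 over the ages, 30.2 to 52.3 for E16.5 against E12.5 and E13.5, 1.15 to 11.2 for P0 against E16.5, 18.3 to 30.9 for W4 against P0, 0.961 to 2.80 for the difference from CapFb2a and 0 to 0.0548 for genotype. The adjusted p of the share over ages by edgeR was 0.0018 to 0.115, its log2 ratios for E16.5 against the earlier ages, P0 against E16.5 and W4 against P0 were -1.62 to -1.49, -0.525 to 0.375 and 0.359 to 1.26, and the newborn difference was -0.334 to 2.03 points. Between 18 and 19 leading genes were shared. Over all alternatives together, and not only with a library left out, 1222 values of named genes kept their side of the threshold. Of the others 61 lost it, 9 gained it and 0 reversed.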
